A study of Homo sapiens with 9 samples.

Results

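The genes described here are the cadherins and protocadherins, taken as every gene of the table whose symbol is CDH followed by a number or starts with PCDH, with pseudogenes left out. They are 86 of the 19356 genes, 21 with CDH symbols and 65 with PCDH symbols. Of the latter, 53 are the clustered protocadherins of chromosome 5, 11 are non-clustered protocadherins and 1 is the antisense RNA PCDH9-AS2, which the letters of its symbol bring in. The 4 pseudogenes left out lie in the PCDHB and PCDHG clusters. RNA was sequenced in 9 libraries of LN229, an established human glioblastoma cell line. Wild type (WT), the ARNT2 knockout line B3 and the ARNT2 knockout line C4 had 3 libraries each. All cells were grown in DMEM with 5% FBS and polyadenylated RNA was taken. ARNT2 is a transcription factor of the basic helix-loop-helix PAS family. Its log2 value was 13.56, 13.59 and 13.58 in WT, 11.91, 11.90 and 11.86 in B3 and 12.22, 12.15 and 12.05 in C4, lower in every library of both lines than in any of WT, though the RNA was not lost. B3 and C4 are 1 line each, and the labels do not say whether either grew from a single cell, so what is particular to a line and what comes from the knockout cannot be told apart. Nor do the labels tie the libraries of a group to separate cultures. The p-values therefore measure the spread between these samples only, which may be technical.

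Cadherins are calcium-dependent adhesion proteins of the cell surface. Type I and type II cadherins bind the same or a related cadherin on the next cell and are tied to actin through catenins, while non-clustered protocadherins carry other cytoplasmic tails, and those of the delta group signal to actin regulators. Clustered protocadherins are made from tandem first exons, each with its own promoter. In the alpha and gamma clusters each first exon is spliced to constant exons that the cluster shares, and a neuron that uses a few of these promoters carries its own surface label. The promoters hold a short conserved element with the core letters CGCT, and the insulator protein CTCF together with the cohesin ring links chosen promoters to enhancers downstream. In glial tumours a change between N-cadherin and E-cadherin is often studied as a sign of a mesenchymal state.

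A stretch around CGCT is shown for some clustered genes with large changes and for PCDHGC3, the most abundant of them. They are shown because each has a promoter of its own and neighbours on the row moved differently, as described below. PCDHA3, which also had large changes, is left out because the RefSeq promoters held no entry for it. The letters are from the RefSeq promoter sequences of build GRCh38.p14, 5′ to 3′ on the strand of the gene, and the capitals mark 1 match to CGCT on that strand in the 250 bases before the start that RefSeq gives. For PCDHA4 and PCDHB14 that start lies downstream of the GENCODE 29 start given by the gene positions used below, so that these stretches lie inside the gene by those positions. PCDHA7, PCDHB4, PCDHB14, PCDHGA5 and PCDHGB6 had 2 such matches and PCDHGC3 had 5, of which the one shown was picked by the letters beside it after the promoters had been read.
PCDHA4, chr5:140806982-140807011, plus strand: agccacatgatgtCGCTctttaccacaaaa
PCDHA5, chr5:140821545-140821574, plus strand: atccacatgatgtCGCTggacaccggaagg
PCDHA7, chr5:140834175-140834204, plus strand: ggccacatgatgtCGCTctttaccgcaaat
PCDHB4, chr5:141121726-141121755, plus strand: agacgcagggtggCGCTgcaggctaagttg
PCDHB5, chr5:141135182-141135205, plus strand: ggacgcctggtggCGCTgcaggct
PCDHB14, chr5:141223266-141223295, plus strand: agacacatggtggCGCTacaggataagacg
PCDHGA5, chr5:141364110-141364139, plus strand: ggactctgagtgtCGCTgttgaccaaagtg
PCDHGA9, chr5:141402717-141402746, plus strand: ggactctgagcgcCGCTgttgatcaactct
PCDHGA11, chr5:141420975-141421004, plus strand: gggctctaggcgcCGCTgctcaccaatcag
PCDHGB2, chr5:141359924-141359953, plus strand: aacctctgagcgtCGCTgttggtcaaaaga
PCDHGB6, chr5:141407927-141407956, plus strand: agcctctgggcgcCGCTgtcggccagtgca
PCDHGC3, chr5:141475883-141475912, plus strand: ggactctgtgtgcCGCTgtcggccaatgaa
In the 250 bases before the start, CGCT on either strand was found in 96.2% of the 52 windows of 47 clustered genes that RefSeq held, against 64.8% of the 35116 windows of all genes. Longer words around it were unequally spread over the clusters. TGTCGCT was in 10 of 13 alpha windows and in 1.32% of all windows, TGGCGCT was in 12 of 14 beta windows and in 3.13% of all, and GCCGCTGT was in 13 of 25 gamma windows and in 1.23% of all, each counted on both strands. TGGCGCT was also in 5 of the 25 gamma windows. These 3 words contain CGCT and were chosen after the promoters had been read, so they describe the clusters and test nothing. The words GCGTG and ACGTG, cores that factors of the family of ARNT2 can bind, were in 21.2% and 14.1% of the 85 windows of 68 members and in 32.2% and 18.5% of all windows. A match is not a binding site, and a window without one says nothing of the factor.

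Values are on a log2 scale that the authors normalised across libraries, and the read depth behind them is unknown. Weakly expressed genes spread less: the median SD between replicates was 0.00935 under a log2 value of 2 and 0.0452 between 8 and 12. The transform behind the values is not given. Weak genes may have been drawn towards their mean, so that their changes may be understated. The median log2 value of a library lay between 10.62 and 10.65, and the members took 0.239% to 0.265% of the summed antilogs. Among the wild-type libraries, WT replicate 1 had the highest value for 56 of 80 members, against 37.6% of all genes tested. The summed log2 level of 12 glioma cell markers was 19.02 to 19.05 in WT, 19.11 to 19.17 in B3 and 19.01 to 19.07 in C4. VIM was the highest of them at 17.83 to 18.23, and NES, an intermediate filament of neural progenitors, was at 15.32 to 15.47. GFAP, the astrocyte filament, was the lowest of the 12 at 6.61 to 6.98. The summed log2 level of 13 epithelial markers was 14.53 to 14.68 in WT, 14.22 to 14.28 in B3 and 14.55 to 14.60 in C4, with KRT18 at 13.69 to 14.09 and KRT8 at 11.85 to 12.63, which both fell in B3, and CLDN3 lowest at 1.80 to 1.83. The 11 endothelial and pericyte markers summed to 17.44 to 17.48, 16.89 to 16.96 and 16.79 to 16.88 in the same order, nearly all of it from CSPG4, which glioma cells also make. ERG was at 0.68 to 0.69. Immune markers summed to 10.78 to 10.82, 11.01 to 11.07 and 10.78 to 10.79, most of it from CD68 at 10.68 to 10.99, which rose in B3, with PTPRC at 2.35 to 2.40. Neuron markers summed to 15.31 to 15.36, 15.42 to 15.46 and 15.45 to 15.48, most of it from MAP2 at 14.004 to 14.37 and TUBB3 at 13.95 to 14.30. SYT1 was at 11.81 to 12.37 and SNAP25 at 11.20 to 11.50, while NEFL was at 1.35 to 1.39 and DCX at 1.59 to 1.62. Their part in the results below was not tested. In a bulk sample fewer cells of a type and less RNA per cell cannot be told apart.

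In wild-type cells a single clustered protocadherin and a pair of classical cadherins made the most RNA per length. On the scale of the antilog per kb of exon, PCDHGC3 stood at 10418 ± 351 (SD, n = 3), CDH19, a type II cadherin of Schwann cell precursors, at 10332 ± 457 and CDH2, the N-cadherin, at 7524 ± 292. PCDHGC3 and CDH19 did not differ beyond their spread, and CDH2 lay below both. Of the exon bases of a PCDHGC gene 40.15% to 43.85% lie under another gene, against 0% for CDH19 and 2.75% for CDH2. How reads from such bases were counted is not given, so the place of PCDHGC3 is uncertain beyond its SD. A block of beta genes followed, with PCDHB8 at 3392 ± 96.7, PCDHB5 at 2601 ± 141 and PCDHB7 at 2392 ± 144, of which PCDHB5 and PCDHB7 did not differ beyond their spread. CDH13, the T-cadherin that is held to the membrane by a lipid anchor and lacks a cytoplasmic tail, was at 1688 ± 49.1, and PCDH1 at 1434 ± 38.3. CDH1, the E-cadherin of epithelia, was at 8.79 ± 0.963, and the lowest member was PCDH19 at 0.212 ± 0.00101. Of the 86 members 80 passed the filter on low values, a mean antilog of at least 10. CDH16, CDH23, CDH26, PCDH8, PCDH19 and PCDH9-AS2 were under it, with log2 values of 0.32 to 3.14 in all 9 libraries, and got no test. CDH5, CDH22 and PCDH11X were not analysed here.

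**Figure D1:**
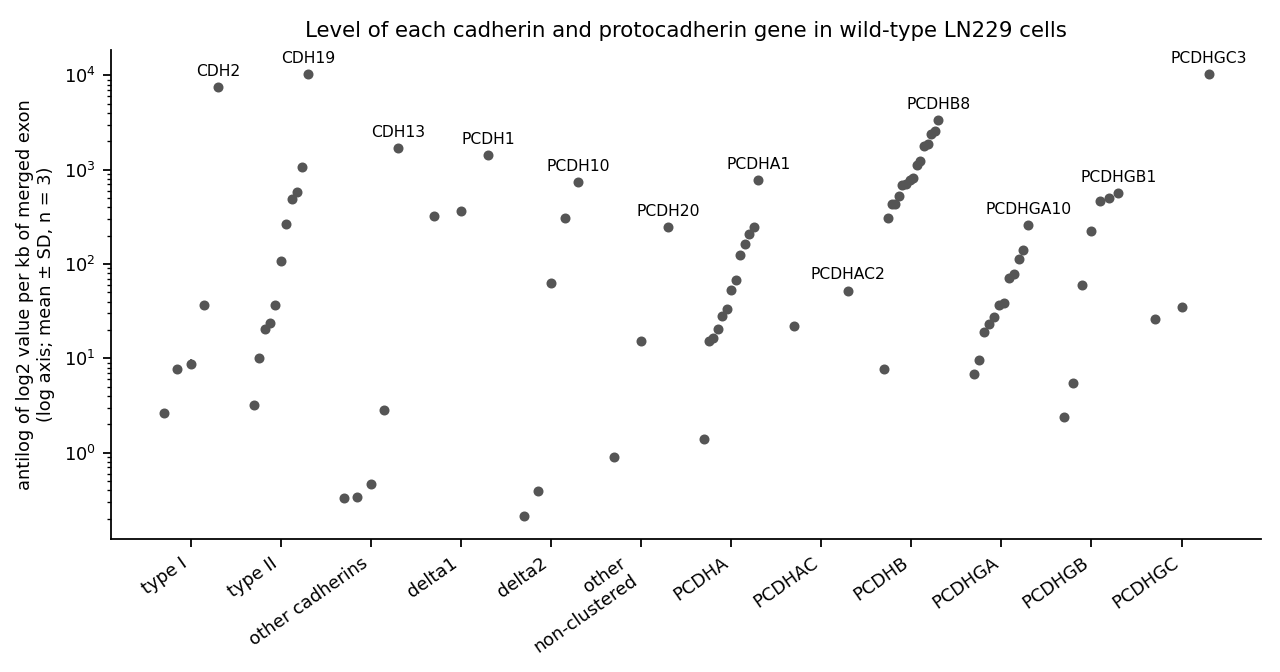
Level of each member in wild-type cells as the antilog of the log2 value per kb of exon (log axis), by family, each point the mean of 3 libraries with SD. PCDHGC3 and CDH19 lie highest, and the type I family spans a wide range of levels, from CDH4 to CDH2.

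The changes below are log2 differences ± SE from 1 limma fit over the 9 libraries with Benjamini-Hochberg adjustment over the 16457 genes tested, and a gene is said to rise or fall at an adjusted p under 0.05. In B3, 28 members rose and 15 fell of the 80 tested. Over all genes tested 47.9% were called in this comparison, 23.2% higher and 24.6% lower, so the members' share of calls was near that of all genes. In C4, 39 members rose and 10 fell, where 56.2% of all genes were called, 28.2% higher and 28% lower. The median change of the tested members was 0.00 in B3 and 0.11 in C4, and that of all tested genes was 0.00 in both. The groups did not overlap for 43 members in B3 and for 51 in C4, against 53.8% and 60.7% of all genes. When every library was scaled to the same total, 33 members were higher and 11 lower in B3, with 64.2% of all called genes higher in place of 48.5%, while 47 were higher and 9 lower in C4, with 61.5% of all called genes higher in place of 50.2%. Both comparisons use the same WT libraries and are given side by side. C4 was also set against B3 directly, where 35 members were higher in C4 and 13 lower. In that comparison 56.4% of all genes were called, 28.6% higher and 27.8% lower, and the groups did not overlap for 50 members and 62.3% of all genes.

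Among the 5 type I cadherins the N-cadherin and the P-cadherin fell in both lines, and the E-cadherin was low throughout. CDH2 (ENSG00000170558.8, chromosome 18, 27950966 to 28177446 on the minus strand, GRCh38 as are all gene positions below), the N-cadherin that neural and mesenchymal cells use, had log2 values of 15.25, 15.15 and 15.16 in WT, 15.03, 15.06 and 15.06 in B3 and 14.96, 14.97 and 14.97 in C4. The 3 groups did not overlap, and C4 lay lowest. CDH2 fell by 0.13 ± 0.03 in B3 (adjusted p = 1.36e-04) and by 0.22 ± 0.03 in C4 (adjusted p = 1.19e-07), and C4 was lower than B3 by 0.08 ± 0.03. CDH3, the P-cadherin, was at 7.85, 7.87 and 7.79 in WT, 7.59, 7.47 and 7.57 in B3 and 7.57, 7.56 and 7.64 in C4. Its values in both lines lay below every WT value, and it fell by 0.30 ± 0.05 in B3 and 0.25 ± 0.05 in C4, with no call between the lines (0.05 ± 0.05).
CDH1 (ENSG00000039068.18, chromosome 16, 68737225 to 68835548 on the plus strand) was at 5.58, 5.89 and 5.80 in WT, 5.73, 5.60 and 5.55 in B3 and 5.55, 5.62 and 5.93 in C4. The groups overlapped. Its change was -0.13 ± 0.07 in B3 (adjusted p = 0.153) and -0.06 ± 0.07 in C4 (adjusted p = 0.548), so that no change of the E-cadherin was detectable at this precision. Without WT replicate 1 CDH1 was called lower in B3 (adjusted p = 0.0103, range over all settings 0.0103 to 0.545), and without C4 replicate 3 it was called lower in C4 (adjusted p = 0.0259, range 0.0259 to 0.908). CDH4, the retinal cadherin, was weak, with 4.25, 4.25 and 4.30 in WT, 4.37, 4.36 and 4.31 in B3 and 4.30, 4.30 and 4.31 in C4. It rose by 0.08 ± 0.02 in B3 (adjusted p = 0.0114). That call was lost without B3 replicate 1 (adjusted p = 0.0568, range 7.99e-04 to 0.0568). It was not called in C4 (0.04 ± 0.02), and was called there once libraries were scaled to the same total (adjusted p = 0.0292) or the same median (adjusted p = 0.0324, range 0.0292 to 0.413). The remaining type I gene, CDH15 of muscle, was called in neither line.

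The type II cadherins moved apart from each other, and their largest changes were in C4. CDH11 (ENSG00000140937.13, chromosome 16, 64943753 to 65126112 on the minus strand), the OB-cadherin of mesenchymal cells, was at 12.98, 12.88 and 12.92 in WT, 12.90, 12.92 and 12.93 in B3 and 12.30, 12.34 and 12.27 in C4. The B3 values lay within those of WT and all C4 values lay below both groups. CDH11 fell by 0.62 ± 0.03 in C4 (adjusted p = 6.09e-15), was not called in B3 (-0.01 ± 0.03) and was lower in C4 than in B3 by 0.61 ± 0.03. Of its 17 tested neighbours within 2 Mb, 7 rose and 3 fell in C4, with a median change of 0.01. Of all genes 28.2% rose and 28% fell in C4. CDH18 (ENSG00000145526.11, chromosome 5, 19472951 to 20575873 on the minus strand), a type II cadherin of brain, was at 10.36, 10.37 and 10.27 in WT, 10.64, 10.64 and 10.66 in B3 and 10.97, 10.92 and 10.95 in C4. These groups stood in 3 separate steps, and CDH18 rose by 0.31 ± 0.04 in B3 and 0.62 ± 0.04 in C4, with C4 above B3 by 0.30 ± 0.04.
CDH19 (ENSG00000071991.8, chromosome 18, 66501083 to 66604138 on the minus strand), the most abundant type II gene, was at 16.18, 16.09 and 16.06 in WT, 15.76, 15.75 and 15.83 in B3 and 15.90, 15.85 and 15.82 in C4. Every value of both lines was below WT, and CDH19 fell by 0.33 ± 0.03 in B3 (adjusted p = 4.83e-09) and 0.26 ± 0.03 in C4 (adjusted p = 1.51e-07). The difference of C4 from B3, 0.07 ± 0.03 (adjusted p = 0.0433), was called. It was lost in 8 of the 19 other settings, among them the ones without B3 replicate 1 (adjusted p = 0.138), B3 replicate 2 (0.171), C4 replicate 1 (0.18) and C4 replicate 2 (0.0756), over a range of 0.00893 to 0.18. CDH6, the K-cadherin, was at 8.04, 8.30 and 8.25 in WT, 8.58, 8.69 and 8.59 in B3 and 7.88, 8.13 and 8.25 in C4. B3 lay above all other libraries, and the libraries of C4 were spread widely. CDH6 rose by 0.42 ± 0.07 in B3 and was lower in C4 than in B3 by 0.53 ± 0.07. Its change in C4, -0.11 ± 0.07, was not called except without WT replicate 1 (adjusted p = 0.0274) or without C4 replicate 3 (adjusted p = 0.0308, range 0.0274 to 0.942).
Of all 11 type II genes 5 rose and 2 fell in B3, and 1 rose and 4 fell in C4, with medians of 0.04 and -0.03. Called were 63.6% in B3 and 45.5% in C4, beside 47.9% and 56.2% of all genes tested. The 7 type II genes not described above ran from -0.16 to 0.28 in B3 and from -0.17 to 0.13 in C4. Among all 18 tested CDH genes 7 rose and 4 fell in B3, 1 rose and 6 fell in C4, and 2 were higher and 6 lower in C4 than in B3. These are 61.1%, 38.9% and 44.4% called, beside 47.9%, 56.2% and 56.4% of all genes tested. So in the main fit CDH genes were called less often than all genes in the 2 comparisons with C4. In C4 against WT this did not hold after scaling. There, 5 of the 18 were higher and 6 lower after scaling to the same total or to the same median. With these scalings 9571 and 9551 of all 16457 genes were called. CDH13 (ENSG00000140945.16, chromosome 16, 82626803 to 83800640 on the plus strand) was at 14.25, 14.18 and 14.18 in WT, 14.26, 14.34 and 14.34 in B3 and 14.24, 14.18 and 14.18 in C4. It rose by 0.11 ± 0.03 in B3, was not called in C4 (0.00 ± 0.03), and was lower in C4 than in B3 by 0.11 ± 0.03. The genes within 2 Mb of the CDH genes of chromosome 16q, where CDH1, CDH3, CDH11 and CDH13 lie, were counted too: of 179 tested, 31 rose and 48 fell in B3, and 86 rose and 16 fell in C4. Over all genes 23.2% rose and 24.6% fell in B3, and 28.2% rose and 28% fell in C4.

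**Figure D2:**
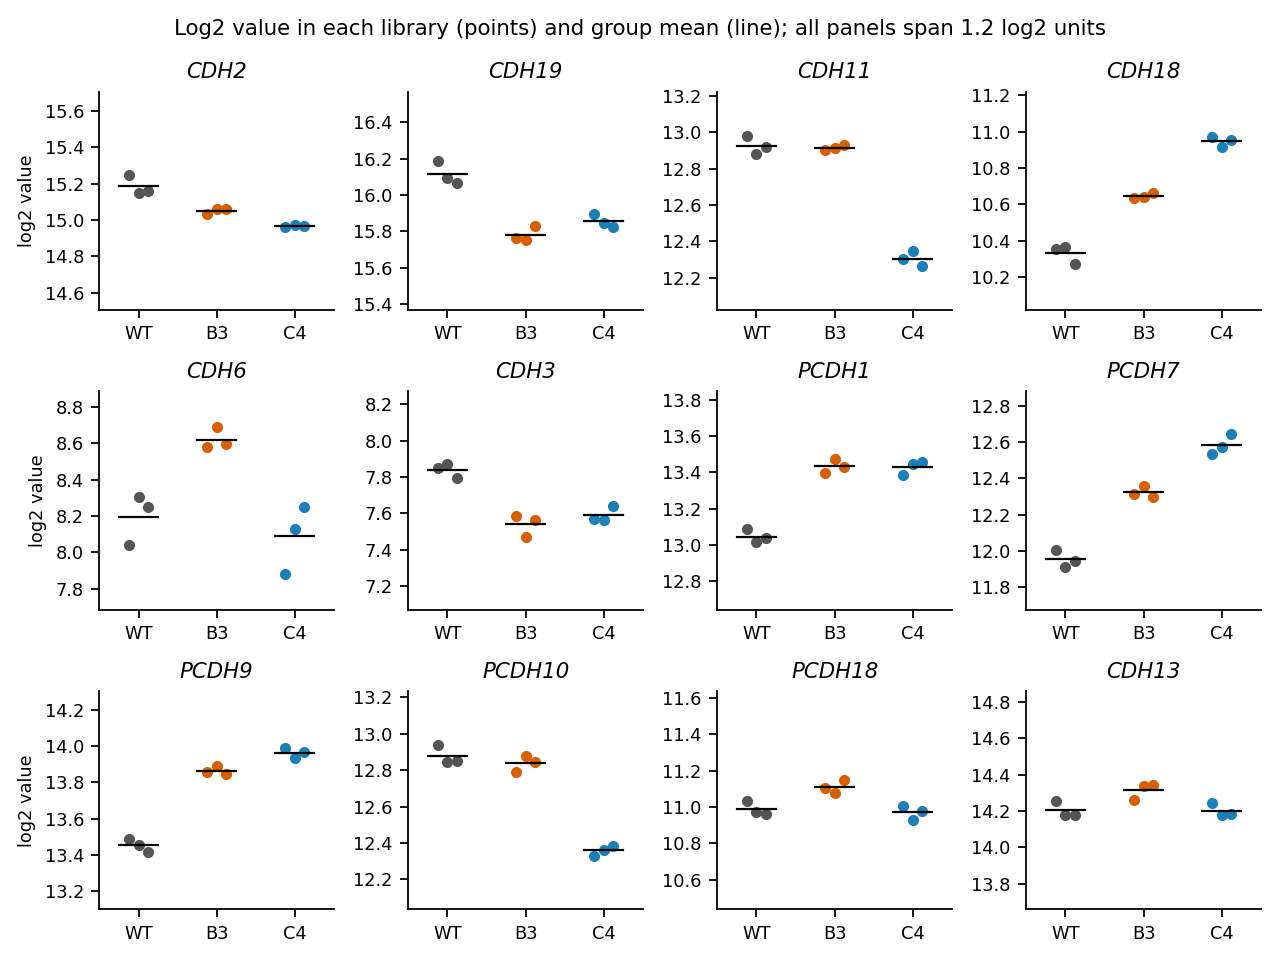
Log2 values of 12 cadherins and non-clustered protocadherins in each library (points) with group means (lines), every panel spanning the same 1.2 log2 units. CDH11 and PCDH10 are low in C4 alone, CDH18 and PCDH7 climb from WT to B3 to C4, and CDH6 is high in B3 alone.

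The 3 protocadherins of the delta-1 group that were analysed here, PCDH1, PCDH7 and PCDH9, rose in both lines. The tails of that group carry a motif that binds a protein phosphatase. PCDH1 (ENSG00000156453.13, chromosome 5, 141853111 to 141879246 on the minus strand), an adhesion protein of airway and skin epithelia as well as brain, was at 13.09, 13.01 and 13.04 in WT, 13.40, 13.48 and 13.43 in B3 and 13.39, 13.45 and 13.46 in C4. Both lines lay above WT and overlapped each other, with rises of 0.39 ± 0.03 in B3 (adjusted p = 4.42e-11) and 0.38 ± 0.03 in C4 (adjusted p = 2.26e-11). Its 37 tested neighbours within 2 Mb gave 21 falls and 16 genes without a call in B3, and 17 rises and 4 falls in C4. Of all genes 24.6% fell in B3, and 28.2% rose and 28% fell in C4. PCDH7 (ENSG00000169851.15, chromosome 4, 30720415 to 31146805 on the plus strand) was at 12.005, 11.91 and 11.95 in WT, 12.32, 12.36 and 12.30 in B3 and 12.53, 12.57 and 12.64 in C4. It stood in 3 steps, with rises of 0.37 ± 0.03 in B3 and 0.63 ± 0.03 in C4, and C4 was above B3 by 0.26 ± 0.03. PCDH9 (ENSG00000184226.14, chromosome 13, 66302834 to 67230445 on the minus strand), a protocadherin of the nervous system, was at 13.49, 13.46 and 13.42 in WT, 13.86, 13.89 and 13.85 in B3 and 13.99, 13.94 and 13.97 in C4. Both lines lay above WT, with rises of 0.41 ± 0.02 in B3 and 0.51 ± 0.02 in C4, and C4 was above B3 by 0.10 ± 0.02. All 3 of these delta-1 genes were higher in each comparison with WT under all 19 other settings. Over all genes 23.2% were higher in B3 and 28.2% in C4 in the main fit.
In the delta-2 group, whose tails bind the WAVE regulators of actin, PCDH10 and PCDH18 were called against WT in different lines. Both were lower in C4 than in B3. PCDH10 (ENSG00000138650.8, chromosome 4, 133149315 to 133208606 on the plus strand) was at 12.94, 12.85 and 12.85 in WT, 12.79, 12.88 and 12.84 in B3 and 12.33, 12.36 and 12.38 in C4. The values of B3 reached into those of WT and all C4 values were lower, so that PCDH10 fell by 0.52 ± 0.03 in C4 (adjusted p = 3.75e-13), was not called in B3 (-0.04 ± 0.03), and was lower in C4 than in B3 by 0.48 ± 0.03. PCDH18 was at 11.03, 10.97 and 10.96 in WT, 11.10, 11.07 and 11.15 in B3 and 11.01, 10.93 and 10.98 in C4. It rose by 0.12 ± 0.04 in B3, was not called in C4 (-0.02 ± 0.04) and was lower in C4 than in B3 by 0.14 ± 0.04. PCDH20 was at 10.23, 10.21 and 10.20 in WT, 10.23, 10.13 and 10.08 in B3 and 10.10, 10.09 and 10.07 in C4. It fell by 0.13 ± 0.04 in C4, but 95.8% of its exon bases lie under another gene, so its value is uncertain. PCDH12, PCDH15 and PCDH17 lay between -0.17 and 0.18 in B3 and between -0.06 and 0.09 in C4. Over the 9 tested non-clustered protocadherins, 5 rose and 2 fell in B3 and 3 rose and 3 fell in C4. Called were 77.8% in B3 and 66.7% in C4, beside 47.9% and 56.2% of all genes tested.

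**Figure D3:**
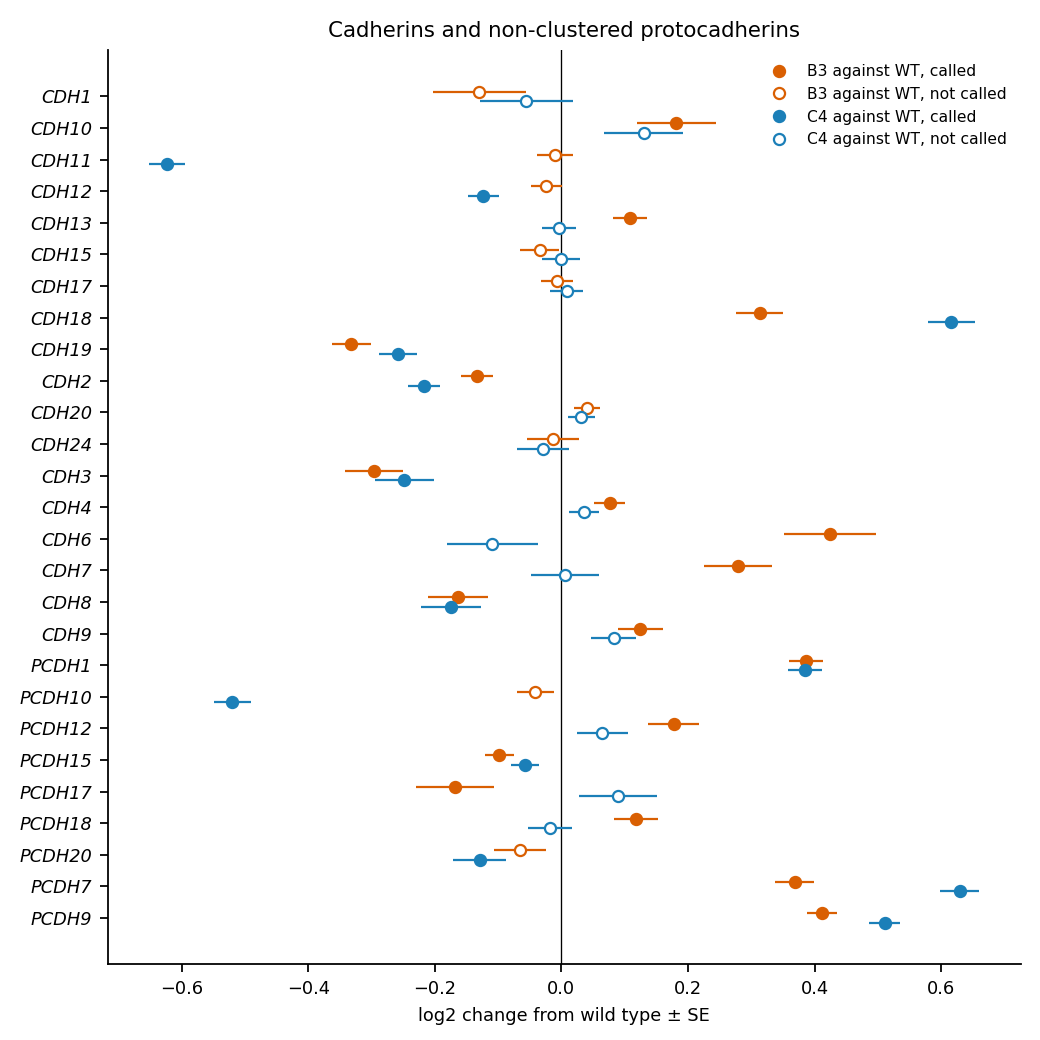
Log2 change from wild type ± SE of each tested cadherin and non-clustered protocadherin in B3 and in C4 (filled points, called; open points, not called). CDH11 and PCDH10 fell in C4 only by call, and PCDH1, PCDH7, PCDH9 and CDH18 rose in both lines.

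The 53 clustered protocadherins lie in a row on chromosome 5 from 140786136 to 141512981, a span of 726.8 kb, with the alpha genes first, then beta, then gamma, and all 53 were tested. In C4 35 of them rose and 1 fell with a median change of 0.14, while in B3 16 rose and 9 fell with a median of 0.01. In the direct comparison 30 were higher and 4 lower in C4 than in B3, with a median of 0.12. Called were thus 67.9% in C4, 47.2% in B3 and 64.15% in the direct comparison, beside 56.2%, 47.9% and 56.4% of all genes tested. The share called in B3 was near that of all genes. Of 51 genes within 2 Mb of the row that were tested and are no members, 25 rose and 6 fell in C4 (median 0.05), 1 rose and 28 fell in B3 (median -0.07), and 39 were higher and 2 lower in C4 than in B3 (median 0.14). Over all genes tested 28.2% rose and 28% fell in C4, and 23.2% rose and 24.6% fell in B3. In the direct comparison 28.6% of all genes were higher and 27.8% lower. The part of the neighbours in the result was not tested.
Along the row some called genes lay side by side in runs, of which the longer ones are given here. Other called genes stood alone, such as PCDHA7 in both lines and PCDHAC2 and PCDHB10 in B3. With 35 of 53 genes risen in C4, long runs can arise there from the share of calls alone, and the runs were not tested. In C4 the 5 genes from PCDHA1 to PCDHA5 all rose, then, after PCDHA6 to PCDHA9, the 18 from PCDHA10 to PCDHB11, and then the 3 from PCDHB13 to PCDHB15. The run of 18 shrank to the 11 genes from PCDHB2 to PCDHB11 without WT replicate 2 or without C4 replicate 2, where PCDHAC1 and PCDHB1 lost their calls, and to the 13 from PCDHAC2 to PCDHB11 without WT replicate 1 or C4 replicate 3. Without C4 replicate 2 the run from PCDHA1 also lost PCDHA2 and PCDHA3, and PCDHB15 lost its call without WT replicate 2, WT replicate 3 or C4 replicate 3. In B3 the 4 genes from PCDHA10 to PCDHA13 rose, the 5 from PCDHGB2 to PCDHGA7 fell and the 3 from PCDHGA9 to PCDHGA10 rose. The run of 5 was shorter in the settings where PCDHGA6 or PCDHGA7 lost its call, as given below. The summed level of the alpha genes, as log2 of the summed antilogs, was 13.49 ± 0.04 in WT, 13.60 ± 0.02 in B3 and 13.70 ± 0.01 in C4 (SD, n = 3). The sum of the beta genes was 16.13 ± 0.05, 16.14 ± 0.02 and 16.39 ± 0.02, and that of the PCDHGA and PCDHGB genes 13.79 ± 0.05, 13.78 ± 0.01 and 13.89 ± 0.03. The PCDHGC sum, of which PCDHGC3 made 99.5% in WT, was 15.80 ± 0.05, 15.76 ± 0.02 and 16.13 ± 0.01. So the beta sums of B3 lay within the range of WT, its PCDHGC sums overlapped that range, and all 4 sums of C4 were above every WT value.

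**Figure D4:**
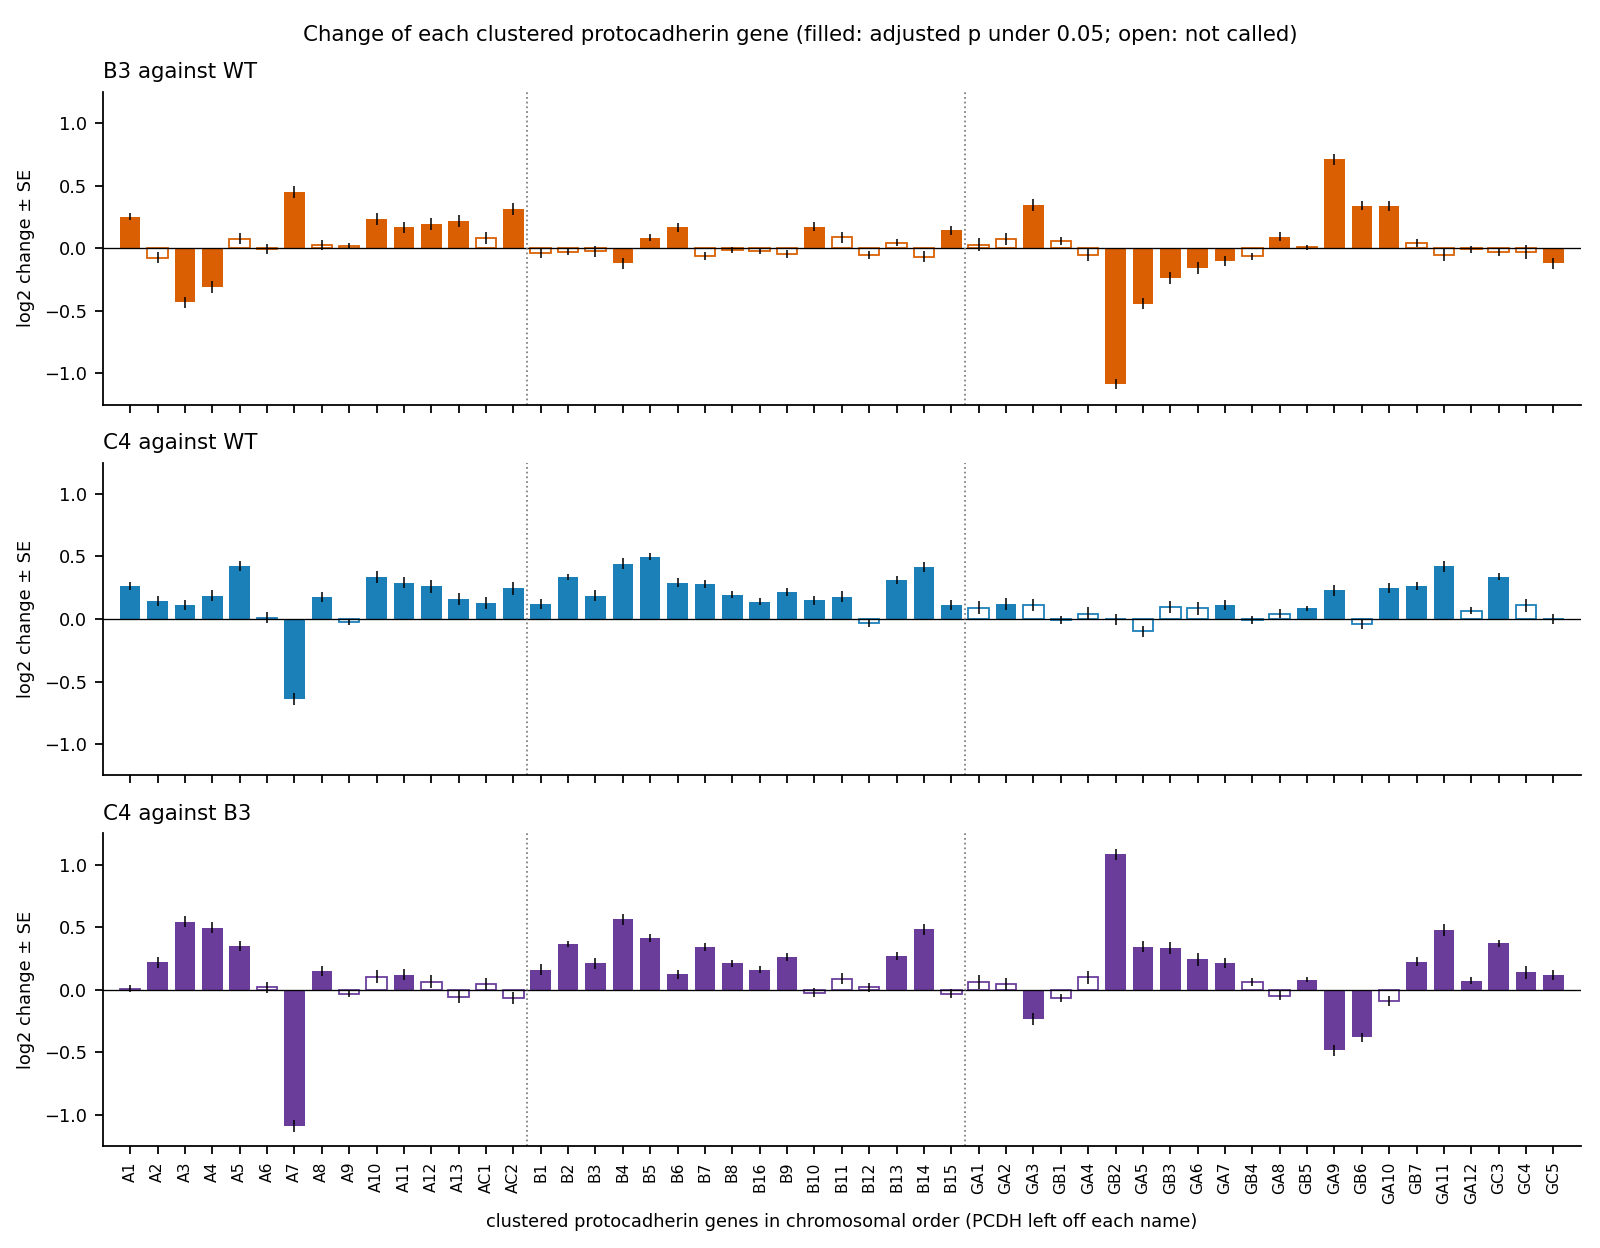
Log2 change ± SE of the 53 clustered protocadherins in their order along chromosome 5 (filled, called, and open, not called). From top to bottom the panels give B3 against WT, C4 against WT and C4 against B3. Against wild type most values of C4 lie above 0 with PCDHA7 far below, and in B3 PCDHGB2 and its neighbours lie below 0.

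In the alpha cluster 12 of 15 genes rose and 1 fell in C4, and 7 rose and 2 fell in B3, with medians of 0.18 and 0.08. Called were 86.7% and 60% of them, beside 56.2% and 47.9% of all genes tested. The alpha proteins are combined on the neuronal surface and their shared tail binds kinases of the focal adhesion family. PCDHA7 (ENSG00000204963.5, chromosome 5, 140834248 to 141012344 on the plus strand) was at 8.64, 8.68 and 8.57 in WT, 9.17, 9.01 and 9.06 in B3 and 8.05, 7.97 and 7.95 in C4. The 3 groups were wide apart with WT in the middle. PCDHA7 rose by 0.45 ± 0.05 in B3 (adjusted p = 1.12e-07) and fell by 0.64 ± 0.05 in C4 (adjusted p = 1.77e-10), and it was 2.13-fold lower in C4 than in B3 (-1.09 ± 0.05 on the log2 scale). Its share of the summed alpha antilogs was 3.44% in WT, 4.38% in B3 and 1.91% in C4. PCDHA3 was at 10.65, 10.54 and 10.56 in WT, 10.18, 10.16 and 10.11 in B3 and 10.63, 10.77 and 10.69 in C4. B3 lay lowest, with a fall of 0.43 ± 0.04, and C4 was above B3 by 0.54 ± 0.04.
The rise of PCDHA3 in C4, 0.11 ± 0.04 (adjusted p = 0.0295), was lost without WT replicate 2 (adjusted p = 0.115), WT replicate 3 (0.1), C4 replicate 2 (0.186) or C4 replicate 3 (0.0556), over a range of 0.00735 to 0.186. PCDHA4 was at 7.86, 7.77 and 7.79 in WT, 7.54, 7.51 and 7.43 in B3 and 8.01, 8.02 and 7.95 in C4. It fell by 0.31 ± 0.05 in B3 and rose by 0.19 ± 0.05 in C4, a difference of 0.50 ± 0.05 between the lines. PCDHA5 was at 9.84, 9.80 and 9.75 in WT, 9.91, 9.87 and 9.84 in B3 and 10.24, 10.19 and 10.24 in C4. It rose by 0.42 ± 0.04 in C4 alone by call. Its change in B3 was 0.08 ± 0.04, called only after scaling to the same total (adjusted p = 0.0304, range 0.0304 to 0.378), and C4 was above B3 by 0.35 ± 0.04. So PCDHA3, PCDHA4 and PCDHA5, which neighbour each other, stood higher in C4 than in B3, while PCDHA7 stood lower.
PCDHA1 (ENSG00000204970.9, chromosome 5, 140786136 to 141012347 on the plus strand), the most abundant alpha gene, was at 12.09, 12.13 and 12.02 in WT, 12.28, 12.39 and 12.33 in B3 and 12.35, 12.32 and 12.36 in C4. It rose by 0.25 ± 0.03 in B3 and 0.26 ± 0.03 in C4 with no call between the lines (0.01 ± 0.03), and made 37.6% of the summed alpha antilogs in WT, 41.7% in B3 and 38.9% in C4. PCDHAC2, one of the genes at the end of the cluster that most neurons use, was at 8.38, 8.39 and 8.34 in WT, 8.66, 8.71 and 8.68 in B3 and 8.61, 8.52 and 8.71 in C4. Both lines lay above WT, with rises of 0.31 ± 0.05 in B3 and 0.24 ± 0.05 in C4 and no call between the lines (-0.07 ± 0.05). The other alpha genes ran from -0.08 to 0.23 in B3 and from -0.02 to 0.34 in C4.

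The beta genes, which are single-exon genes with no shared constant exons, rose together in C4. Of the 16, 15 rose in C4 with a median of 0.20, against 28.2% of all genes higher, and the same comparison without single libraries gave 13 to 15 risen genes. In B3, 4 rose and 1 fell with a median of -0.02, and 12 of 16 were higher in C4 than in B3. Of all genes 47.9% were called in B3, and 28.6% were higher in C4 than in B3. PCDHB5 (ENSG00000113209.8, chromosome 5, 141135218 to 141138625 on the plus strand) was at 13.20, 13.05 and 13.09 in WT, 13.17, 13.23 and 13.19 in B3 and 13.59, 13.60 and 13.64 in C4. C4 lay above all other libraries, and PCDHB5 rose by 0.50 ± 0.03 in C4 (adjusted p = 1.68e-12) and was above B3 by 0.41 ± 0.03. Its smaller rise in B3, 0.08 ± 0.03 (adjusted p = 0.0244), was lost without an intensity trend (adjusted p = 0.0748) and without WT replicate 2 (0.179), WT replicate 3 (0.0957) or B3 replicate 2 (0.127), over a range of 1.96e-04 to 0.179.
PCDHB4 was at 10.28, 10.20 and 10.17 in WT, 10.07, 10.10 and 10.11 in B3 and 10.70, 10.57 and 10.71 in C4. It rose by 0.44 ± 0.04 in C4 and was above B3 by 0.56 ± 0.04, the most of any beta gene. Its fall in B3, -0.12 ± 0.04 (adjusted p = 0.0272), was lost after scaling to the same total (adjusted p = 0.102) and without WT replicate 1 (0.134), B3 replicate 1 (0.0842) or B3 replicate 2 (0.0539), over a range of 0.0204 to 0.134. PCDHB14 was at 11.40, 11.32 and 11.24 in WT, 11.23, 11.33 and 11.20 in B3 and 11.70, 11.69 and 11.82 in C4. It rose by 0.41 ± 0.04 in C4, was not called in B3 (-0.07 ± 0.04) and was above B3 in C4 by 0.48 ± 0.04. The other beta genes ran from -0.03 to 0.33 in C4, with PCDHB12 the gene that was not called, and from -0.06 to 0.17 in B3.

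The gamma cluster held the largest change of all members in B3. PCDHGB2 (ENSG00000253910.2, chromosome 5, 141360042 to 141512979 on the plus strand) was at 11.27, 11.18 and 11.22 in WT, 10.11, 10.19 and 10.11 in B3 and 11.17, 11.16 and 11.32 in C4. The B3 libraries lay about 1 log2 unit below all others, and WT and C4 overlapped. PCDHGB2 fell by 1.08 ± 0.04 in B3, a 2.12-fold lower level (adjusted p = 1.39e-15), and its change in C4 was 0.00 ± 0.04 (adjusted p = 0.971). C4 was above B3 by 1.08 ± 0.04. Its share of the summed antilogs of the PCDHGA and PCDHGB genes was 16.8% in WT, 8.02% in B3 and 15.8% in C4. PCDHGA5, the next gene along, was at 8.68, 8.68 and 8.62 in WT, 8.24, 8.19 and 8.21 in B3 and 8.52, 8.57 and 8.58 in C4. It fell by 0.44 ± 0.04 in B3. In C4 its change of -0.10 ± 0.04 was not called (adjusted p = 0.0631), and it was called lower with a filter of 50, without an intensity trend, with robust moderation or without WT replicate 3 (adjusted p = 0.0485, range 0.00944 to 0.188).
The run of falls went on, in smaller steps, through PCDHGB3 (-0.24 ± 0.05), PCDHGA6 (-0.16 ± 0.05) and PCDHGA7 (-0.10 ± 0.04), genes named here because they complete the run and chosen after their values were seen. The call of PCDHGA7 (adjusted p = 0.0438) was lost in 10 of 19 other settings, among them the ones without WT replicate 1 (adjusted p = 0.0954), WT replicate 3 (0.169), B3 replicate 2 (0.119) and B3 replicate 3 (0.174), over a range of 0.0166 to 0.174. In C4 PCDHGA7 rose by 0.11 ± 0.04 (adjusted p = 0.0242), a call lost without WT replicate 2 (adjusted p = 0.127) or C4 replicate 2 (0.0722), over a range of 0.00614 to 0.127. The B3 call of PCDHGA6 (adjusted p = 0.0131) was lost without WT replicate 1 (adjusted p = 0.0624) or B3 replicate 1 (0.0502), over a range of 0.00761 to 0.0624.
Further along, PCDHGA9 (ENSG00000261934.2, chromosome 5, 141402932 to 141512979 on the plus strand) was at 8.53, 8.53 and 8.53 in WT, 9.27, 9.21 and 9.25 in B3 and 8.79, 8.74 and 8.76 in C4. It rose by 0.71 ± 0.04 in B3 (adjusted p = 5.09e-12) and by 0.23 ± 0.04 in C4, stood 0.48 ± 0.04 lower in C4 than in B3, and went from 2.61% to 4.32% of the PCDHGA and PCDHGB sum between WT and B3. PCDHGB6, the next gene, was at 10.60, 10.59 and 10.52 in WT, 10.87, 10.93 and 10.94 in B3 and 10.53, 10.51 and 10.55 in C4. It rose by 0.34 ± 0.04 in B3, was not called in C4 (-0.04 ± 0.04) and was lower in C4 than in B3 by 0.38 ± 0.04. PCDHGA10 was at 10.81, 10.71 and 10.69, 11.03, 11.11 and 11.08 and 10.99, 10.91 and 11.05 in the same order of groups, with rises of 0.34 ± 0.04 and 0.25 ± 0.04. The difference of C4 from B3, -0.09 ± 0.04 (adjusted p = 0.0711), was called only without WT replicate 1 (adjusted p = 0.0465), B3 replicate 1 (0.0437) or C4 replicate 3 (0.0241), over a range of 0.0241 to 0.362. Along a short stretch of the row B3 thus held both the deepest fall and the highest rise of the gamma genes.
PCDHGA11 was at 7.07, 7.10 and 7.02 in WT, 6.95, 7.08 and 6.995 in B3 and 7.41, 7.47 and 7.57 in C4. It rose by 0.42 ± 0.05 in C4 alone by call, with C4 above B3 by 0.48 ± 0.05. PCDHGB1, the most abundant of the PCDHGB genes, was at 11.48, 11.40 and 11.36 in WT, 11.50, 11.48 and 11.43 in B3 and 11.41, 11.38 and 11.42 in C4. It was called in no comparison. Its change in B3, 0.06 ± 0.03, was called after scaling to the same total (adjusted p = 0.028) or without WT replicate 1 (adjusted p = 0.0322, range 0.028 to 0.505). The gamma genes not described one by one ran from -0.12 to 0.35 in B3 and from -0.01 to 0.26 in C4. Over the 19 PCDHGA and PCDHGB genes 5 rose and 5 fell in B3, while in C4 7 rose and 12 were not called, with medians of 0.01 and 0.09. Called were 52.6% in B3 and 36.8% in C4, beside 47.9% and 56.2% of all genes tested. PCDHGC3 (ENSG00000240184.6, chromosome 5, 141475947 to 141512979 on the plus strand), a gene that is expressed well beyond neurons, was at 15.84, 15.76 and 15.76 in WT, 15.73, 15.77 and 15.76 in B3 and 16.12, 16.12 and 16.14 in C4. All C4 values lay above the others, and PCDHGC3 rose by 0.34 ± 0.03 in C4 (adjusted p = 1.17e-10), was not called in B3 (-0.03 ± 0.03), and was above B3 by 0.37 ± 0.03.

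**Figure D5:**
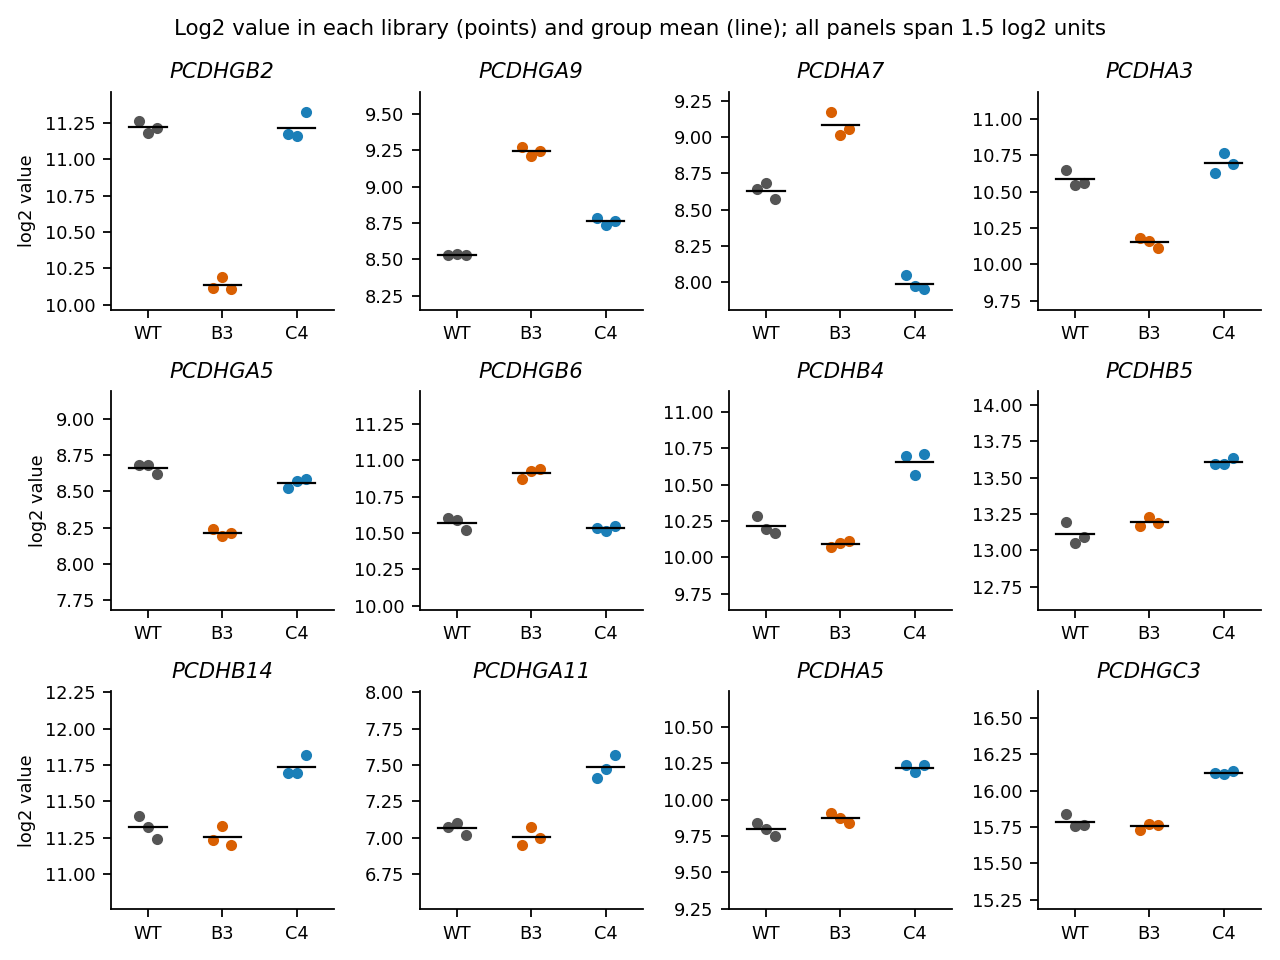
Log2 values of clustered protocadherins in each library (points) with group means (lines). PCDHGB2 is low in B3 alone, PCDHA7 is high in B3 and low in C4, and PCDHB5 and PCDHGC3 are high in C4.

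The clustered genes share sequence, which bears on how firmly a single value can be read. In GENCODE 29 21.3% to 63.1% of the exon bases of a PCDHA gene lie under another gene. For PCDHGA it is 27.6% to 51.4%, for PCDHGB 32.2% to 64.4% and for PCDHGC 40.15% to 43.85%. The PCDHB genes share 0% to 24.9%. Of the 50-base words in the transcripts of a PCDHB gene, a median of 14.2% and at most 45.8% also occur in another member. Reads from such stretches can be dropped or split by the counting, whose handling of them is not given in the sources used here, so the values of clustered genes are uncertain to that degree. The 5 type I cadherins shared no such word with another member.

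Of the genes that cadherins work with, 116 tested genes of 7 lists, 33 rose and 37 fell in B3 and 35 rose and 37 fell in C4, with medians of 0.00 in both. Called were thus 70 and 72 of 116, beside 47.9% and 56.2% of all genes tested, and the same shares of all genes stand beside each list that follows. Catenins and other junction linkers tie cadherin tails to actin, and of 22 tested 3 rose and 6 fell in B3 and 7 rose and 4 fell in C4. CTNNA1, the alpha-catenin, fell by 0.17 ± 0.03 in B3 and rose by 0.26 ± 0.03 in C4. CTNNB1, the beta-catenin, rose by 0.15 ± 0.03 in B3 and 0.26 ± 0.03 in C4. CTNND2, the delta-catenin of neural cells, rose by 0.45 ± 0.04 in C4, and its change in B3 was 0.08 ± 0.04, called only after scaling to the same total (adjusted p = 0.0377) or without B3 replicate 2 (0.0204), over a range of 0.0204 to 0.389. Proteases that shed or process cadherins gave 4 risen and 8 fallen of 16 in B3 and 4 and 6 in C4, with ADAM9 at -0.42 ± 0.02 in B3 and not called in C4 (0.01 ± 0.02), and ADAM17 lower in both lines (-0.20 ± 0.03 and -0.27 ± 0.03). Transcription factors of the switch between cadherins gave 7 risen and 1 fallen of 13 in B3 and 2 and 8 in C4. SNAI2, a repressor of CDH1, rose by 0.33 ± 0.04 in B3 and fell by 0.34 ± 0.04 in C4, while SNAI1 rose by 0.28 ± 0.03 in B3 and 0.29 ± 0.03 in C4. FOXC2 fell by 0.47 ± 0.05 in C4 and was not called in B3 (0.07 ± 0.05). TWIST2 fell by 0.41 ± 0.03 in C4 and rose by 0.11 ± 0.03 in B3 (adjusted p = 0.0124), a call lost without B3 replicate 1 (adjusted p = 0.0518) or B3 replicate 3 (0.063), over a range of 0.00153 to 0.063.
The factors that fold or silence the protocadherin row gave 10 risen and 5 fallen of 22 in B3 and 12 and 4 in C4. Among the parts of the cohesin ring, SMC1A rose by 0.19 ± 0.03 in B3 and 0.32 ± 0.03 in C4, while RAD21 rose by 0.17 ± 0.02 in B3 and fell by 0.32 ± 0.02 in C4. NIPBL, which loads the ring, fell by 0.16 ± 0.02 in B3 and rose by 0.10 ± 0.02 in C4. Effectors of protocadherin tails gave 6 risen and 6 fallen of 19 in B3 and 4 and 8 in C4. DAB1, an adaptor of reelin signalling, rose by 0.60 ± 0.04 in B3 and 0.44 ± 0.04 in C4, and PTK2, the focal adhesion kinase, fell by 0.41 ± 0.02 in C4. The smaller fall of PTK2 in B3, -0.06 ± 0.02 (adjusted p = 0.0342), was lost in 8 of 19 other settings, among them the ones without WT replicate 2 (adjusted p = 0.0627), WT replicate 3 (0.114), B3 replicate 2 (0.0761) and B3 replicate 3 (0.127), over a range of 0.0276 to 0.337.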

How the data were processed

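Deposited by the authors was 1 table of log2 values for 19356 genes in 9 columns, normalised across libraries. The base of the logarithm is inferred from the values. Per the submitters' processing notes the tools were STAR 2.7.3a, Subread 1.6.3 and DESeq2 (no version given) with genome build hg38, and their roles and the transform are not given in the sources used here. Read depth is unknown, so the number of libraries limits the precision and no counting interval is given. The members, gene lists and tests were chosen with earlier results of these data known. Tested were the 16457 genes whose antilog averaged 10 or more (2899 were left out), in 1 fit of limma 3.58.1 (R 4.3.3) with an intensity trend and a coefficient per group, two-sided, with Benjamini-Hochberg adjustment over all of them and calls at an adjusted p under 0.05. The fit was run on simulated data with independent normal noise and a small set of changed genes. The share of genes called in the real data was far larger, so that run does not check these calls. Genes named with values were, per comparison, the 6 called members with the largest rise and the 6 with the largest fall among those whose antilog averaged 50 or more and whose groups lay apart, the most abundant member of each family and a fixed set of known cadherins. Of each partner list at most 2 genes per direction and comparison were named. Positions and exon lengths are from GENCODE 29, which held all 86 members and 92.6% of tested symbols, and promoters are from RefSeq, which held 68 members. Same-numbered libraries of different groups had correlations of -0.23 to 0.02 between their deviations from the group means. Differently numbered ones had -0.12 to 0.225, so the numbers were not used as pairs. Deviations within a group of 3 depend on each other, so these values cannot exclude a pairing. The labels name no batch. The 19 alternatives changed the filter, pseudocount, scaling, moderation or samples, or added a replicate block.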

Additional observations from a re-analysis of the deposited data

Results flagged for a closer look

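The changes from wild type differed between the knockout lines for 48 of the 80 tested members, by the direct limma comparison of C4 with B3 (3 libraries each, adjusted p under 0.05), near the 56.4% of all genes that were called. They include 23 of the 32 members named by the rule, a count that tests nothing, since part of those genes were named for their changes in this comparison. The values that follow are log2 values of C4 minus B3. Of the named members 14 were higher in C4: PCDHGB2 (1.08), PCDHB4 (0.56), PCDHA3 (0.54), PCDHA4 (0.50), PCDHB14 (0.48), PCDHGA11 (0.48), PCDHB5 (0.41), PCDHGC3 (0.37), PCDHA5 (0.35), PCDHGA5 (0.35), CDH18 (0.30), PCDH7 (0.26), PCDH9 (0.10) and CDH19 (0.074). Another 9 were lower in C4: PCDHA7 (-1.09), CDH11 (-0.61), CDH6 (-0.53), PCDHGA9 (-0.48), PCDH10 (-0.48), PCDHGB6 (-0.38), PCDH18 (-0.14), CDH13 (-0.11) and CDH2 (-0.084). The call of CDH19 (adjusted p = 0.0433) was lost without B3 replicate 1 (adjusted p = 0.138), B3 replicate 2 (0.171), C4 replicate 1 (0.18) or C4 replicate 2 (0.0756), over a range of 0.00893 to 0.18 in all settings. PCDHA3, PCDHA4, PCDHA7, PCDHB4 and, outside the naming rule, PCDHGA7 were called in both lines with opposite signs against wild type, where PCDHA3 in C4, PCDHB4 in B3 and PCDHGA7 in both lost their calls without some single libraries. No group held the 4 libraries that a check for a library standing apart needs.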

How the results depend on the processing

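No change of a member reversed its sign while called: of 240 changes (80 tested members in 3 comparisons) 189 kept their side of the threshold under all of the 19 settings, and among the 4530 values computed 98 lost a call and 67 gained one. The cause was not tested. Leaving out single libraries gave 37 to 43 called members in B3 against WT, 42 to 52 in C4 against WT and 45 to 49 in C4 against B3. It gave 60 to 72, 67 to 71 and 63 to 69 called partner genes, and 25 to 30, 26 to 31 and 35 to 41 called neighbours of the clustered row. Called beta genes in B3 fell from 5 to 3 without B3 replicate 2, and called CDH genes in C4 went from 7 to 11 after scaling to the same total or median. Such scaling moved the median change of all genes by at most 0.03, and scaling to the same total moved the share of higher calls among partner genes from 47.1% to 61.4% in B3 and from 48.6% to 62.5% in C4. With a replicate block 42, 49 and 47 members were called in the 3 comparisons, against 43, 49 and 48 without it. The labels do not say whether same-numbered libraries share a source. Their correlations showed no sign of a pairing but cannot exclude one. Depth is unknown, 3 libraries per group limit the precision, and weak members such as CDH4 could change more than their values show.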

Other observations

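Cadherin relatives outside the CDH and PCDH names, such as the flamingo, fat, dachsous, calsyntenin and desmosomal genes, gave 2 risen and 9 fallen of 19 tested in B3 and 6 risen and 5 fallen in C4, with medians of -0.06 and 0.03, beside 47.9% and 56.2% of all genes called. CLSTN3, a calsyntenin of synapses, fell by 0.55 ± 0.03 in B3 and was not called in C4 (0.01 ± 0.03). DCHS2, a partner of the fat cadherins, fell by 0.37 ± 0.04 in B3 and 0.18 ± 0.04 in C4. CELSR1, a flamingo cadherin of planar cell polarity, rose by 0.43 ± 0.04 in C4 and was not called in B3 (0.01 ± 0.04), and CELSR2 fell by 0.37 ± 0.03 in B3 and rose by 0.29 ± 0.03 in C4. DSC2, a desmosomal cadherin, fell by 0.24 ± 0.04 in B3 and 0.36 ± 0.04 in C4. Of 5 nectins, adhesion proteins that act beside cadherins in junctions, 1 rose and 2 fell in B3, and 2 fell and 3 were not called in C4, with PVR at -0.14 ± 0.03 in B3 and -0.21 ± 0.03 in C4.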
